A study of Mus musculus and Bos taurus with 2 samples.

Results

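Histone lysine methyltransferases and demethylases were taken as the genes whose name, in either set of transcript models, begins with Kdm, Kmt or Setd and a digit, and which had at least 1 model on their own strand. They numbered 30 of 14090 named genes with such a model in mouse, with 89 of 31354 sense models, and 32 of 13375 in bovine, with 109 of 33163. The mouse library came from Slc:ICR late 2-cell embryos 36 h after in vitro fertilization. The bovine library came from 8-cell to 16-cell embryos 72 h after insemination, for which the oocytes were either Japanese Black or F1 of Japanese Black × Holstein and the sperm came from a Japanese Black bull. Both held polyadenylated RNA of about 200 pooled, in vitro produced embryos, read as long nanopore cDNA. There was 1 library per species, so no value has a replicate error, no test was possible, and species, stage, hours and reference annotation cannot be told apart. The deposited models carry no read count, so depth is unknown, and the absence of a model does not show that a gene is silent.

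These enzymes write and erase methyl groups on the lysines of histone tails. Methylation of lysine 4 of histone H3 marks active promoters, that of lysine 36 marks transcribed gene bodies, and that of lysines 9 and 27 and of lysine 20 of histone H4 accompanies silent chromatin. At genome activation these marks are known to be reset from the pattern of the gametes. The KMT2 and SETD1 proteins are very long, with the catalytic SET domain at the C-terminal end in KMT2A to KMT2D, SETD1A and SETD1B, so the part of the coding region that a model covers decides which protein parts it could encode.

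A sense model is one whose class code, the label in the files for its relation to the reference, places it on the gene's own strand over its exons. An exact match has the full intron chain of a reference transcript, which may be coding or non-coding, and a contained model is a piece of one. The libraries as a whole held 42028 models with 292540 exons in mouse and 40819 with 293209 in bovine. Of 6 oocyte and embryo markers, mouse had a model for 6 and bovine for 5, with Oosp1 absent. Cumulus and granulosa markers were found for 4 of 10 in each species, sperm markers for 2 of 7 in mouse and 3 of 7 in bovine, and blood and immune markers for 1 of 8 and 5 of 8. The blood and immune list gives the globin genes under both mouse and other symbols, so not all 8 names could be found in either species. With no abundance in the files, the share of RNA from such cells in the values below was not tested.

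The set was broadly present in both libraries. Of 34 annotated protein-coding mouse members, 29 had a sense model (85.3%, exact 95% binomial interval 68.9% to 95.0%), against 52.2% of all annotated protein-coding genes. By symbol, 26 were found in both species, beside 60.1% of the mouse named genes and 63.3% of the bovine ones. Found in mouse alone were Kdm4d, Kdm4dl (annotated as an unprocessed pseudogene), Kdm5d, which lies on the Y chromosome, and Kdm7a. Whether the bovine reference holds these symbols, or a Y chromosome at all, was not analysed here, since no bovine annotation was used. Their absence in bovine may therefore be fixed by the reference. Found in bovine alone were KDM1A, KMT2A, SETD1B, SETD6, SETD7 and SETD9. The mouse library held no model on the same strand over any annotated exon of Kdm1a, Kmt2a, Setd1b, Setd6 or Setd7, and no Setd9 entry was in the mouse annotation used here.

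The number of models differed widely between members. In mouse, Kdm2b, Setd3 and Setd4 had 8 sense models each, Setd2 had 6, and Kdm4a and Kdm4c had 5. Kdm3a, Kdm5a, Kmt2c and Kmt5a had 4 and Kdm3b, Kdm6a, Kmt5b and Setd1a had 3, while Kdm1b, Kdm5c, Kdm6b, Kdm8 and Kmt5c had 2. Kdm2a, Kdm4b, Kdm4d, Kdm4dl, Kdm5b, Kdm5d, Kdm7a, Kmt2b, Kmt2d, Kmt2e and Setd5 had 1 each. The mean was 2.97 against 2.23 over all named genes, and the median was 2 for both.

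In bovine, KMT2C stood apart with 15 models, followed by KDM4A, KMT2E and KMT5B with 7, KDM5A with 6 and KMT5A with 5. KDM2A, KDM5B, KDM5C, KMT2B, SETD2 and SETD5 had 4, and KDM1B, KDM4C, SETD1A, SETD3, SETD4 and SETD9 had 3. KDM3A, KDM3B, KDM6A, KMT2D, SETD1B and SETD6 had 2, and KDM1A, KDM2B, KDM4B, KDM6B, KDM8, KMT2A, KMT5C and SETD7 had 1. The mean was 3.41 against 2.48 over all named genes, and the median 3 against 2. The leading genes differed between the libraries: Kdm2b had 8 models in mouse and 1 in bovine, and Kmt2e had 1 in mouse and 7 in bovine.

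**Figure D1:**
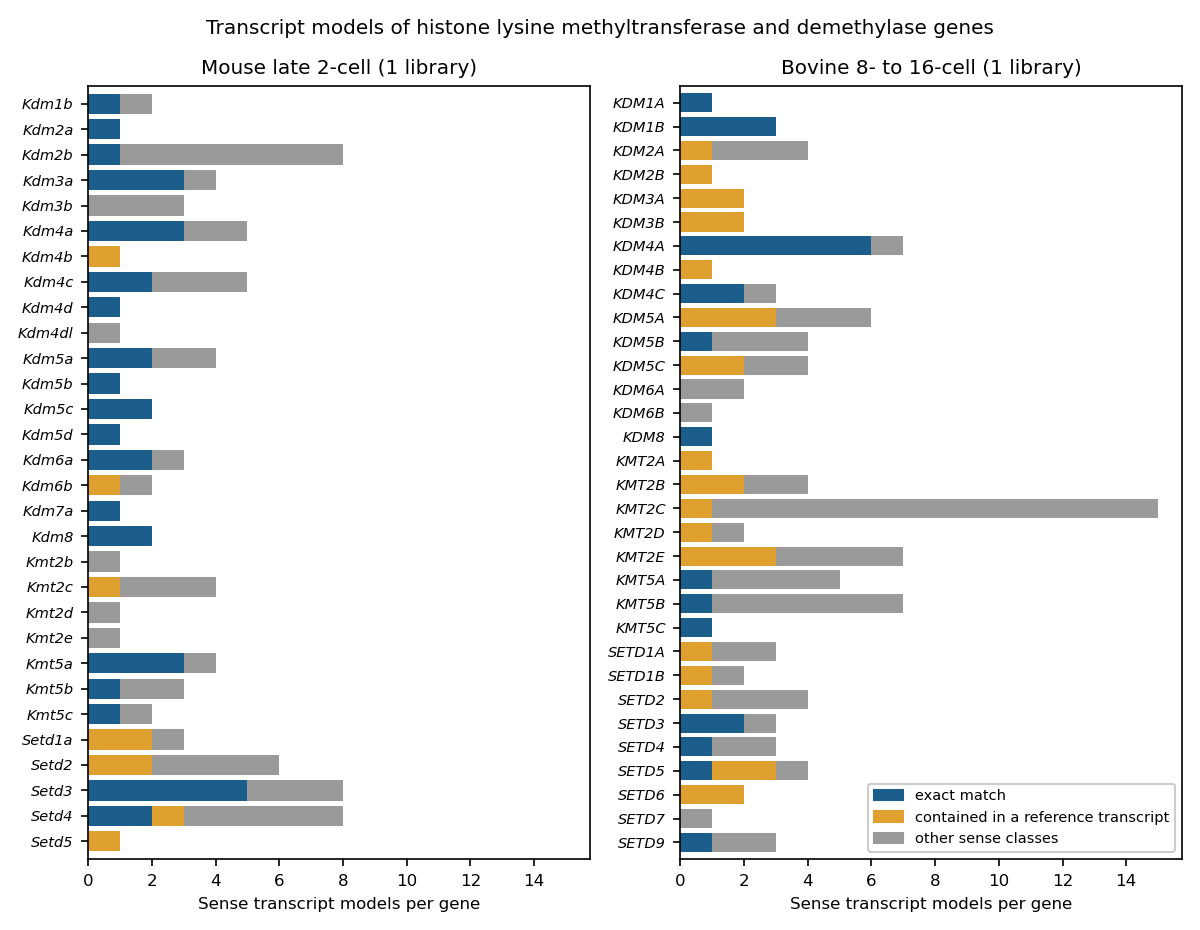
Sense transcript models per gene (x axis, count) for each mouse member (left) and each bovine member (right), 1 library each. Bar segments count exact matches, models contained in a reference transcript and all other sense classes; KMT2C stands out in bovine with 15 models and no exact match, while Kdm2b, Setd3 and Setd4 have 8 each in mouse.

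The share of exact matches among the models of these genes lay below that of all genes in both libraries. Exact matches made up 39.3% of the mouse members' models (35 of 89, interval 29.1% to 50.3%) against 55.4% over all sense models of named genes. In bovine they made up 20.2% (22 of 109, 13.1% to 28.9%) against 44.0%. Pieces of a reference transcript made up 10.1% against 4.65% in mouse and 24.8% (17.0% to 34.0%) against 6.57% in bovine. These intervals treat models as independent draws and cover counting error only. At least 1 exact match was found for 19 of 30 mouse members, where 72.5% of all named genes had one, and for 13 of 32 bovine members, where 65.5% had one. Among the 26 shared symbols, 10 had an exact match in both libraries, 6 in mouse alone, 1 (SETD5) in bovine alone and 9 in neither.

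Counted by role, the demethylase (KDM) genes, without the pseudogene Kdm4dl, had 23 exact matches among 46 models in mouse and 14 among 42 in bovine. The methyltransferase (KMT and SETD) genes had 12 among 42 and 8 among 67. Per gene, an exact match was found for 14 of 17 demethylases and 5 of 12 methyltransferases in mouse, and for 6 of 15 and 7 of 17 in bovine, where KDM4A alone held 6 of the 14 exact models of the demethylases. The difference between roles was not tested. The KMT2 group and the SETD1 pair had none in either library, over 10 mouse models (7 of KMT2 and 3 of Setd1a) and 34 bovine models (29 of KMT2, 3 of SETD1A and 2 of SETD1B).

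Many of these genes are long. The longest annotated coding region had a median of 3972 bp in the 29 mouse members against 1326 bp over all coding genes with a model. A single model that spanned a whole annotated coding region was found for 15 of the 29, against 75.8% of all such genes, and one that spanned the longest coding region for 12, against 66.3%. These shares were also taken within classes of coding length. Below 1.5 kb all 4 members had such a model (background 86.2%), from 1.5 kb to below 3 kb 4 of 5 did (71.3%), and from 3 kb to below 5 kb 7 of 12 (48.4%). At 5 kb and above none of 8 did (21.7%), and the best single model covered a median of 33.4% of the coding bases in these 8 against 43.0% over all genes of that class. An exact match was found for 4 of 4, 5 of 5, 9 of 12 and 1 of 8 mouse members across the same classes. Over all genes the mouse shares were 85.5%, 72.9%, 50.8% and 21.4%, so the members lay below only at 5 kb and above. Bovine members were grouped by the coding length of the mouse gene of the same symbol. They had an exact match in 4 of 6, 4 of 4, 4 of 11 and 0 of 10 cases. All bovine genes had one in 81.4%, 60.5%, 36.3% and 15.7%.

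**Figure D2:**
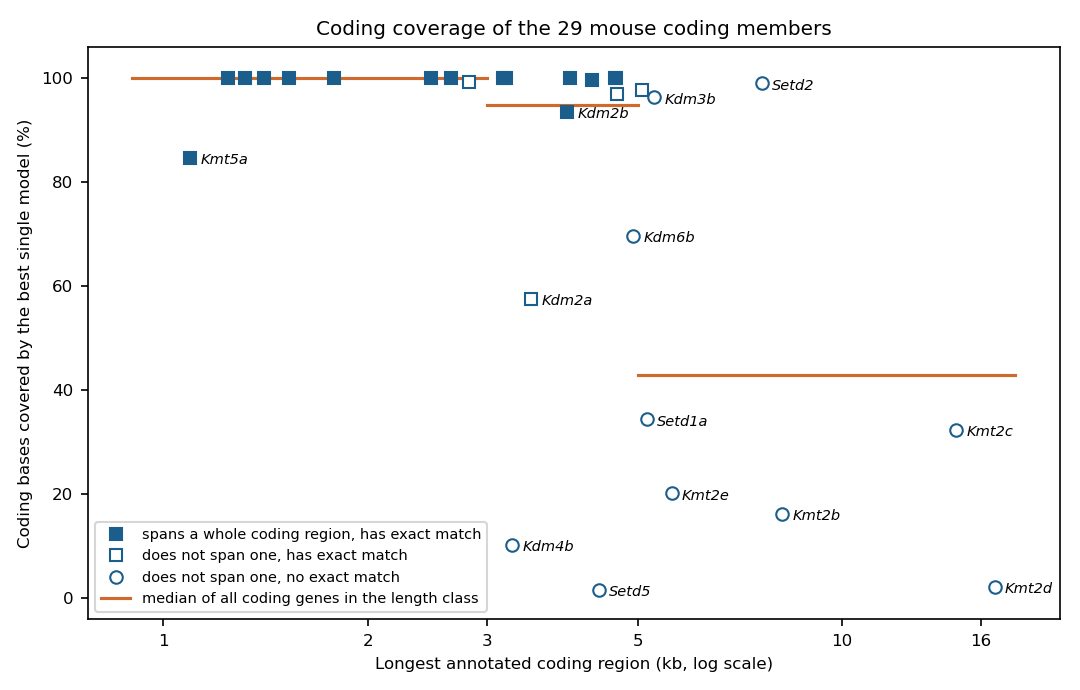
Share of the longest annotated coding region covered by the best single sense model (y axis, percent) against the length of that region (x axis, kb, log scale) for the 29 mouse members with a coding annotation. Filled symbols have a model that spans a whole annotated coding region, which for Kdm2b, Kdm6a and Kmt5a is a shorter one than the longest; lines give the median of all coding genes in each length class, 43.0% at 5 kb and above, where 5 of the 8 members lie below that line.

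The KMT2 and SETD1 enzymes, which methylate lysine 4 of histone H3, were seen in pieces. Mouse Kmt2c (coding region 14715 bp) had 4 models from 3 start groups. One of 14 exons began at the annotated promoter and covered 17.1% of the coding bases with the start codon. Another of 16 exons and 6629 bp began 198 kb further along the gene and covered 32.3%, with the stop codon. Together the 4 covered 79.5%. Kmt2b had 1 model of 8 exons with the stop codon (16.2% of 8166 bp), and Kmt2e, a relative with an internal SET domain, had 1 with the start codon (20.2% of 5607 bp). Kmt2d had 1 model of 3 exons and 387 bp, with neither codon and 2.19% of 16767 bp. These values leave out opposite-strand models that share annotated introns of the gene. Such a model had 11 exons and 2225 bp at Kmt2d and 6 exons and 2346 bp at Kmt2c. Setd1a had 2 models at its 5′ end and 1 of 6 exons with the stop codon, and together they covered 65.9% of 5151 bp.

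In bovine, these genes again had no exact match, but many KMT2C models shared a start. Of its 15 models, 10 began at the same base, 114701204 on chromosome 4 (bosTau9, minus strand), 152 kb into the gene from its outermost assembled start. They had 3 to 20 exons and spliced lengths of 1611 to 4829 bp, and only 2 models began at the outermost start. Within the block of 10, exons of 66 bp, 120 bp and 114 bp, each a multiple of 3, were present in 4, 7 and 8 models and skipped cleanly by 4, 2 and 1. Only the models from the last 2 start groups, of 14 and 10 exons and 4785 and 4928 bp, reached the most distal 3′ end of the assembled gene. Whether the base at 114701204 lies in an annotated first exon was not analysed here, since KMT2C had no exact match and no bovine annotation was used. KMT2E had 7 models in 3 start groups, of which 3 began at the outermost start with 16 to 19 exons and 3 began 84.6 kb downstream with 4 to 5 exons. KMT2B had 4 models from 4 start groups, KMT2D 2 of 5 and 2 exons, and KMT2A 1 contained model of 10 exons and 2822 bp. SETD1A had 3 models from 3 start groups, 2 of 8 exons (2215 and 2633 bp) and a contained one of 5 exons and 1372 bp. SETD1B had a contained model of 7 exons and 2013 bp and one of 5 exons and 2714 bp, from separate starts.

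**Figure D3:**
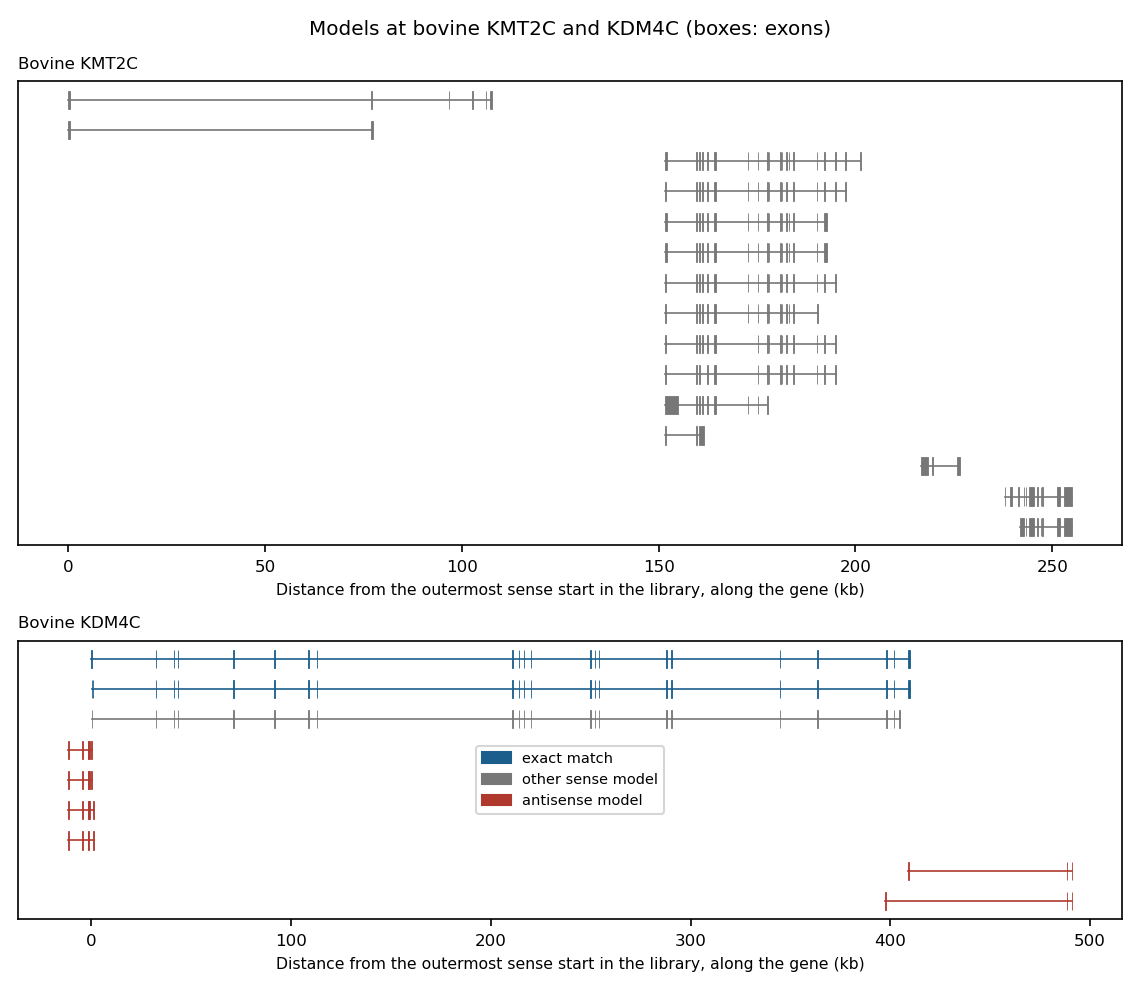
Exons (boxes) of each model at bovine KMT2C (top) and KDM4C (bottom) against distance from the outermost sense start in the library, along the gene (kb). In KMT2C a block of 10 models begins at the same base 152 kb from the outermost start; in KDM4C 6 antisense models lie at the ends of the gene and none of them in its middle.

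Several members had a first exon that lies outside the annotation compared here, called unannotated below. In mouse, 10 multi-exon models of 5 members had a first exon that touched no same-strand exon of either GENCODE release M21 or the library's exact matches, and 20.5% of all named genes had such a model. Kdm2b had 4 of them, Kdm4c and Setd2 2 each, and Kdm6b and Kdm4dl 1 each. The Kdm6b model is classed as contained in a reference transcript, so the reference behind the class codes covers its first exon although GENCODE M21 does not, and whether that reference also holds any of the others was not analysed here. A second rule, which needs no outside annotation and so serves both species, took each library's own exact matches as the known exons and judged only genes with an exact multi-exon match. By that rule mouse had 12 models with a first exon outside the exact matches, in 4 of 19 members (background 16.8%; Kdm2b 7, Kdm4c 2, Setd4 2, Kmt5a 1). Bovine had 13 in 4 of 13 (background 17.9%; KMT5B 6, KMT5A 4, KDM5B 2, SETD9 1). KMT5A was the symbol found in both by that rule. The second rule also counts first exons that GENCODE M21 holds: by the first rule Kdm2b had 4, Kdm4c 2, and Setd4 and Kmt5a 0. The bovine models could not be checked in this way, since no bovine annotation was used. Whether these exons lie in transposable elements, the question of the series, was not analysed here, since no genome sequence or repeat annotation was used.

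Setd2 encodes the enzyme that trimethylates lysine 36 of histone H3, a mark with a known part in oocytes and early embryos. Its only near-complete mouse models, of 22 and 21 exons and 8554 and 8334 bp, both began in an unannotated first exon of 141 bp at 110529165 to 110529305 on chromosome 9 (mm10, plus strand), 3.43 kb upstream of the gene. They covered 99.03% and 98.99% of the 7614 coding bases and held the stop codon but not the annotated start codon. Of the other 4, 2 contained models and 2 junction-sharing models began 37.1 to 71.2 kb inside the gene. No model began at the annotated promoter, which is shown here because the gene was assembled almost in full from another start. Promoter sequences in the text run from 250 bases before to 50 after the annotated start (RefSeq, GRCm38.p6, 5′ to 3′ on the strand of the gene). Capitals run from the first base of an assembled model to the end of the window, and a window without capitals holds no model start.
Setd2, chr9:110532347-110532646, plus strand: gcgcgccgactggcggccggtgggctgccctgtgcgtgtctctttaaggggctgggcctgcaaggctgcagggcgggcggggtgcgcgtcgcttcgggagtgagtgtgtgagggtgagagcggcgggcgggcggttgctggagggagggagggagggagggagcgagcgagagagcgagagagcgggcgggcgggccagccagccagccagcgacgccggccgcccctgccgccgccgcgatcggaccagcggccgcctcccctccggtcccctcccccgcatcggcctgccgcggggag
This window held 38 CpG dinucleotides in 300 bases.

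Bovine SETD2 was also without an exact match. Its 4 models had 4 start groups, and the longest, contained in a reference transcript, had 19 exons and 8273 bp, from a first exon of 4362 bp.

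Kdm2b binds unmethylated CpG islands through a CXXC zinc finger and removes methyl groups from lysine 36 of histone H3 through a JmjC domain near its N-terminus. The gene's short form starts at an internal promoter and lacks the JmjC domain. Of the 8 mouse models, the only exact match was that short form (12 exons, 3527 bp, first base 122900350 on chromosome 5, minus strand), which spans a coding region of 2331 bp. Another 4 models began at 122983614, in a first exon of 570 or 514 bp without annotation, 6.21 kb inside the outermost annotated start. One of these had 21 exons and 5295 bp and covered 93.5% of the long form's 3930 coding bases without its start codon. The remaining 3 models, of 12 or 13 exons, began 67.7 or 68.2 kb into the gene and covered 54.4% to 60.2%. The promoters of the short form (first below) and of the outermost RefSeq start (second below) are printed because only the first holds a model start. The outermost annotated start used for the distances above, 122989823 in GENCODE M21, lies outside the second window.
Kdm2b, chr5:122900301-122900600, minus strand: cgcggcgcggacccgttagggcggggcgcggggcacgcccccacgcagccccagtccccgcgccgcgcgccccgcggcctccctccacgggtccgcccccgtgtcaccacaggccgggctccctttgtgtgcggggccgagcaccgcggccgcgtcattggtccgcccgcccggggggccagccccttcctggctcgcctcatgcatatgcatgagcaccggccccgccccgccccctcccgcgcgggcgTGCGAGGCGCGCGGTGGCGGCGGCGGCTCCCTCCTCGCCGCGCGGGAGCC
Kdm2b, chr5:122989050-122989349, minus strand: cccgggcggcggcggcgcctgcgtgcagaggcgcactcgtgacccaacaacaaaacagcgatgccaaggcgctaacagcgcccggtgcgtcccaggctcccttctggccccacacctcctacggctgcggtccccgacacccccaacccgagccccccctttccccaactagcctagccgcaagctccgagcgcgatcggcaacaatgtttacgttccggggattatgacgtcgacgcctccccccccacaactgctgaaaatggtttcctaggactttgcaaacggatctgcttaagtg
The windows held 49 and 28 CpG dinucleotides. Among the models, 2 skipped the coding exon of 225 bp printed next (GENCODE M21), one of 12 exons on its own and one of 10 exons together with its neighbours, which encodes part of the CXXC zinc finger and whose length is a multiple of 3. The exact match and 3 others held it.
Kdm2b, chr5:122888530-122888754, minus strand: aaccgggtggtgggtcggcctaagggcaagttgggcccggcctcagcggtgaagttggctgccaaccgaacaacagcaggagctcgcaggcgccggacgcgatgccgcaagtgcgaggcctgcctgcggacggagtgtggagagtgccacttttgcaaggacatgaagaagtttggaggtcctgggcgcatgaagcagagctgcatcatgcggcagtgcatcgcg
In bovine, KDM2B had 1 contained model of 5 exons and 2534 bp.

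**Figure D4:**
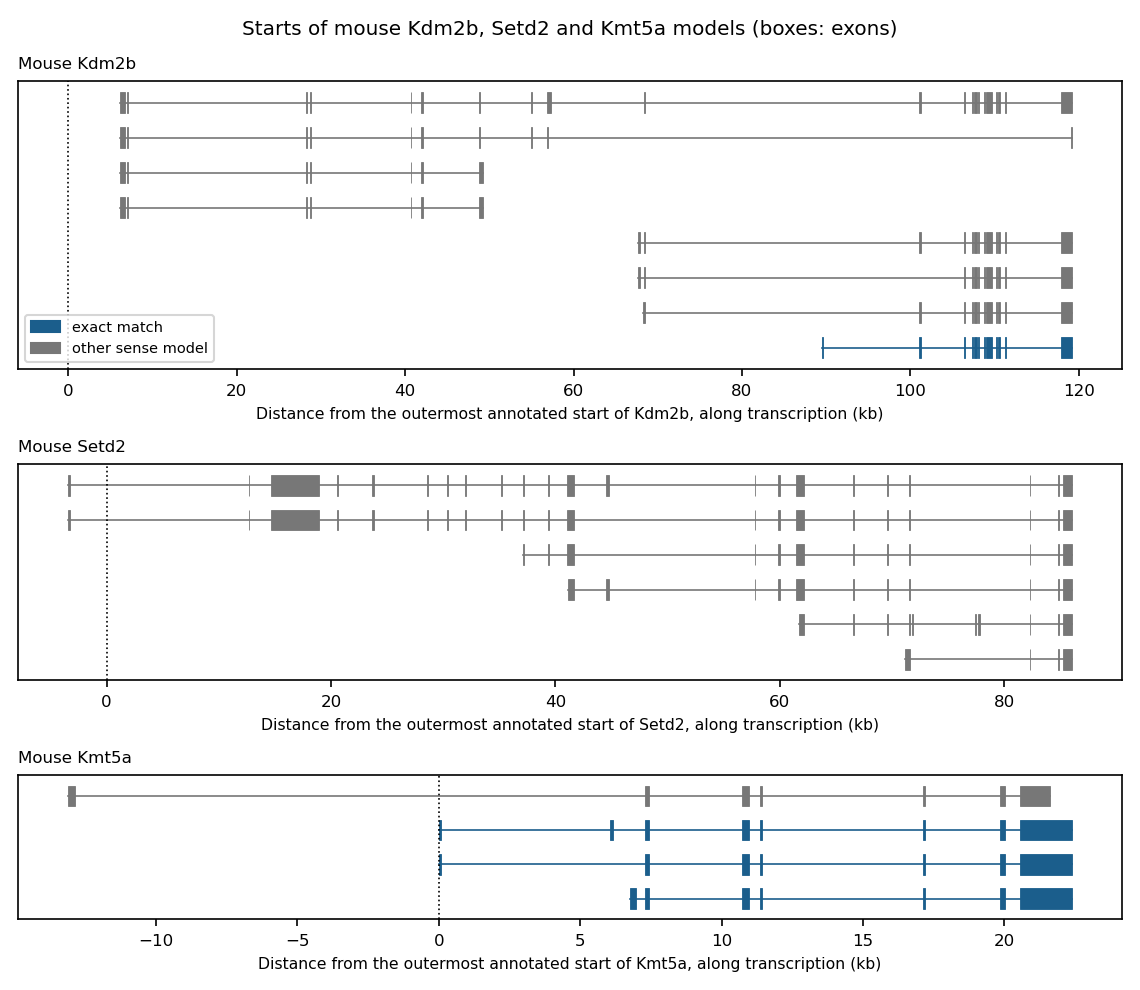
Exons (boxes) of every sense model of mouse Kdm2b, Setd2 and Kmt5a against distance from the outermost annotated start, along transcription (kb), with that start as a dotted line. No Kdm2b or Setd2 model begins at the dotted line; the long Setd2 models begin 3.43 kb before it, and 1 Kmt5a model begins 13.1 kb before it.

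The KMT5 enzymes methylate lysine 20 of histone H4: KMT5A adds the first methyl group, and KMT5B and KMT5C the next ones. KMT5A had 3 start groups in each species. In mouse, 2 exact matches began at 124439930 on chromosome 5 (plus strand) and another 6.77 kb downstream at 124446704, and a further model of 7 exons began 13.1 kb upstream, in an exon that overlaps the annotated gene Gm37415 on the same strand. All 4 models span an annotated coding region of 888 or 1053 bp. In bovine, the exact match began 5.23 kb downstream of the outermost start, and 4 models from 2 start groups upstream of it had first exons that overlap no exact match. The 3 annotated mouse windows are printed because models began in the first and the last but not in the middle one.
Kmt5a, chr5:124439680-124439979, plus strand: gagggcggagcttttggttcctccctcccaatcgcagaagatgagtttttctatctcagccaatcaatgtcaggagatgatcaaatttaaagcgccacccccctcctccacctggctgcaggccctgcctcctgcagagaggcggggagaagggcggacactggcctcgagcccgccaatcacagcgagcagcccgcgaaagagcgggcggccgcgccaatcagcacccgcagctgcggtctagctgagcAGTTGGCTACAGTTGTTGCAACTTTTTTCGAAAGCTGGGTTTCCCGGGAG
Kmt5a, chr5:124445249-124445548, plus strand: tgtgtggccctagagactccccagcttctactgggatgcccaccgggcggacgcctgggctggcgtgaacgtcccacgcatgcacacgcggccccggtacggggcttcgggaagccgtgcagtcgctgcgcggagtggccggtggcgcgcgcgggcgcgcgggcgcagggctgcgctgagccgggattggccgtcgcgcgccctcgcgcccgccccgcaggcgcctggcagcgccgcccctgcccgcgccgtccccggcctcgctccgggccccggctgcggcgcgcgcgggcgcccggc
Kmt5a, chr5:124446454-124446753, plus strand: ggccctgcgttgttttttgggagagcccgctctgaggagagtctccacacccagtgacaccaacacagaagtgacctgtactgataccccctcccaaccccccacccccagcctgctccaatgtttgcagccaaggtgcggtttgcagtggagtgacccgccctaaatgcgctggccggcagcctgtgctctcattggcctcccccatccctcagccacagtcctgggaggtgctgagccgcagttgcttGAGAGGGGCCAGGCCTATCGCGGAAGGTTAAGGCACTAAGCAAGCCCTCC
The window without a model start held 51 CpG dinucleotides, more than either of the windows with one (18 and 9). The exact matches from the first start differed by a coding exon of 116 bp, which 1 held and the other skipped, a length that is not a multiple of 3.
Kmt5a, chr5:124445969-124446084, plus strand: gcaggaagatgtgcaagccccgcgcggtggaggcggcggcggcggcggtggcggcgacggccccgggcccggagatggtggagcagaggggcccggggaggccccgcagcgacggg

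Both mouse genes for the later methylation steps, and bovine KMT5B, had models that lacked the same kind of very short exon. The exon has 20 bp in mouse Kmt5b and Kmt5c, is coding in the annotation, and lies in the stretch for the catalytic SET domain. A 20-bp exon also stood in 5 of 7 bovine KMT5B models (45682598 to 45682617 on chromosome 29, minus strand) and in the exact match of bovine KMT5C. The mouse exons, from GENCODE M21 transcripts, are the same at 16 of 20 positions; capitals mark the 4 that differ.
Kmt5b, chr19:3804814-3804833, plus strand: aTtgcaGaccTaactgTaag
Kmt5c, chr7:4743247-4743266, plus strand: aCtgcaAaccCaactgCaag
In mouse Kmt5b the exact match and a model of 12 exons held the exon and a model of 9 exons joined its neighbours directly. In mouse Kmt5c the exact match held it and the other model, of 8 exons, skipped it and so covered 98.6% of the coding bases. In bovine KMT5B, 2 models from the same first base, of 9 exons and 1998 bp and of 8 exons and 1978 bp, had lengths that differ by this exon. A length of 20 is not a multiple of 3, so skipping changes the reading frame downstream. No exact match skipped it. Short exons were often skipped in these libraries: among internal exons of up to 30 bp under at least 2 sense models of their gene, 33.3% in mouse and 43.2% in bovine were skipped by another model, against 7.91% and 8.88% of internal exons of any length. Over all members' exons the shares were 6.78% (20 of 295) and 9.32% (22 of 236).

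**Figure D5:**
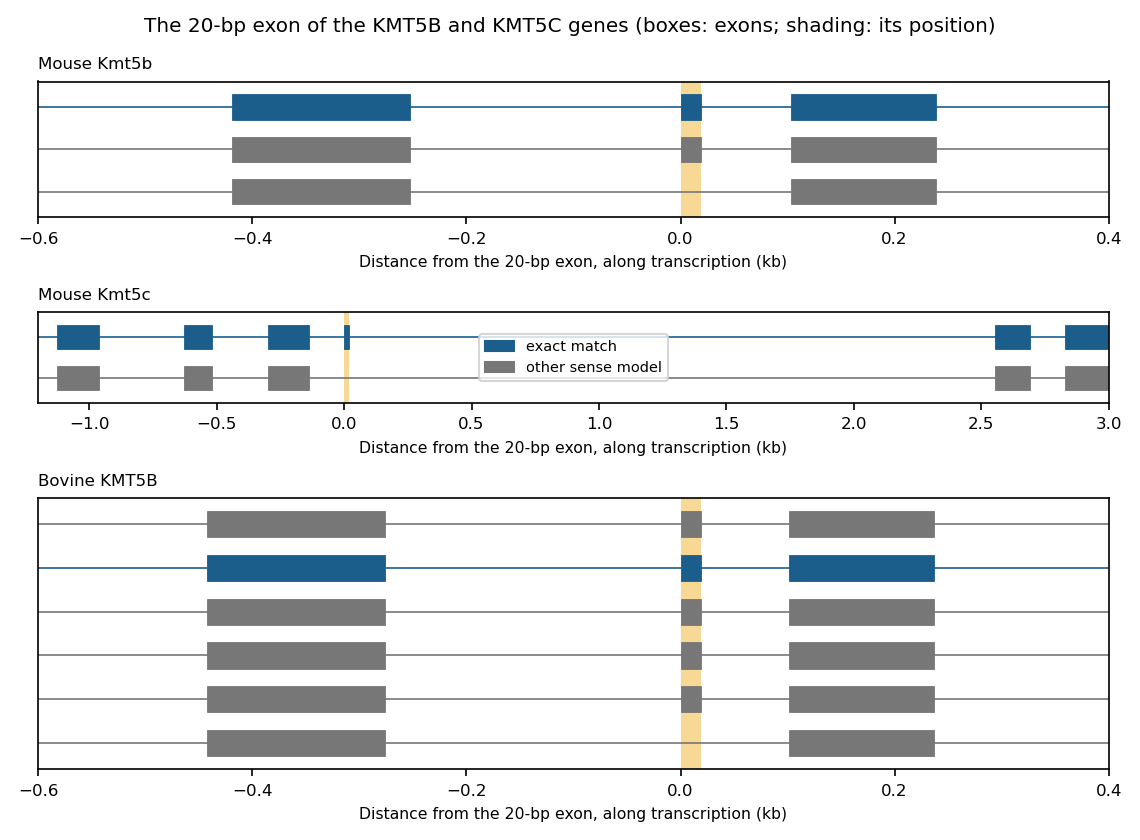
Exons (boxes) around the 20-bp exon (shaded) in each model of mouse Kmt5b, mouse Kmt5c and bovine KMT5B that reaches it, against distance from its first base along transcription (kb, scales differ). In each gene 1 model, never the exact match, joins the flanking exons without it.

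Bovine KMT5B also had the most models with a first exon outside the exact matches among the bovine members. Its exact match began at 45719088, 1 model began 538 bp upstream, and 3 and 2 models began at 45718580 and 45691188, which lie 1.05 kb and 28.4 kb from the outermost start.

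Among the demethylases of lysine 4 of histone H3, each of the 4 mouse KDM5 genes had an exact match. Of the 3 bovine KDM5 genes with a model, 1 did. Kdm5b and Kdm5d, the latter on the Y chromosome, had 1 exact match each, of 27 exons and 6300 bp and of 26 exons and 5219 bp, and both spanned the longest coding region. Kdm5c had 2 exact matches of 25 exons that covered 97.04% and 96.8% of 4665 coding bases. Kdm5a had 2 exact matches, of 27 exons and 8506 bp and of 26 exons and 5022 bp, and neither spanned a coding region. Both matched reference transcripts whose identifiers have the RefSeq form for non-coding RNA, so no coding Kdm5a transcript was matched exactly. They covered 97.7% and 89.3% of 5073 coding bases, and the second did not hold the stop codon. Each lacked a coding exon that the other kept, the first one of 115 bp and the second one of 139 bp. Neither length is a multiple of 3, and the exons are printed in that order.
Kdm5a, chr6:120408245-120408359, plus strand: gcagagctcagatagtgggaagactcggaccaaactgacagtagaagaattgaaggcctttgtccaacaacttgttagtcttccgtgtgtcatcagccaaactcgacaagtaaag
Kdm5a, chr6:120415216-120415354, plus strand: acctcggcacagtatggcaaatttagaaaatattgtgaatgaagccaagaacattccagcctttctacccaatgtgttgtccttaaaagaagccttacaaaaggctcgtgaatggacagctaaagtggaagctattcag
In bovine, KDM5B had 1 exact match of 27 exons among 4 models. KDM5A had 6 models and none exact, from 5 start groups spread over 53.9 kb, and KDM5C had 4, with 3 of them in pieces or overlapping fragments of at most 13 exons.

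The amine oxidase demethylases act on the same lysine. Kdm1b is known for its role in setting DNA methylation marks in oocytes. It had 2 models in mouse that spanned the coding region, and 3 exact matches of 21 or 22 exons in bovine, where coding coverage was not computed. Kdm1a, its more widely expressed relative, had 1 exact match of 19 exons and 2617 bp in bovine and no model in mouse.

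The KDM4 group removes methyl groups from lysines 9 and 36 of histone H3. KDM4A was the member with most exact matches in bovine, 6 of 7 models, and had 3 of 5 in mouse. A second start group lay 339 bp downstream of the first in mouse and 338 bp in bovine. In bovine an exon of 153 bp, a multiple of 3, was held by 4 models and skipped by 3, with 4 exact matches on one side and 2 on the other. Mouse Kdm4c had exact matches of 22 exons from 74251879 on chromosome 4 and of 21 exons from 74270830. Its 2 models with an unannotated first exon (147 bp, 472 bp upstream of the gene) had 3 exons, ended after 5.895 kb and held no coding base. Kdm4b was seen only as a contained piece, of 3 exons in mouse and 2 in bovine. Mouse Kdm4d had 1 exact match of 2 exons. The annotated pseudogene Kdm4dl had 1 model of 2 exons that contains the reference transcript and began 3.92 kb upstream of it.

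The KDM3 pair, which acts on lysine 9, had long models in mouse and pieces in bovine. Mouse Kdm3a had 3 exact matches of 26 to 28 exons that all covered its 3972 coding bases. The one of 28 exons held an extra exon of 53 bp, not a multiple of 3, and did not span a whole annotated coding region. Bovine KDM3A had 2 contained pieces of 2 and 11 exons. Mouse Kdm3b had 3 models without an exact match. One began 23 bp inside the annotated start, covered 88.7% of 5289 coding bases and skipped a coding exon of 600 bp, and another began 15.8 kb further along and covered 96.3%. Bovine KDM3B had 2 pieces of 7 and 9 exons.

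The KDM6 enzymes remove methyl groups from lysine 27. X-linked Kdm6a had 2 exact matches of 29 exons in mouse, which covered 99.6% and 96.4% of its longest coding region, and 2 bovine models of 5 and 12 exons from starts 140 kb apart. Mouse Kdm6b had a contained model of 11 exons with the start codon and a first exon of 311 bp that GENCODE M21 lacks (69.7% of 4926 coding bases) and one of 11 exons with the stop codon, and bovine KDM6B had 1 of 2 exons. Kdm7a (20 exons, 99.3% of the coding bases, no start codon) and Kdm2a (10 exons, 57.6%) had 1 exact match each in mouse, and bovine KDM2A had 4 models of 6 to 14 exons from 3 start groups and no exact match. The dioxygenase gene Kdm8 had exact matches in both, 2 in mouse and 1 of 8 exons in bovine.

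Among the other SETD genes, Setd3 and Setd4 had exact matches in both species, and in mouse each had a model that spanned the longest coding region. Setd3, which methylates a histidine of actin, had 5 exact matches among 8 mouse models, all from 1 start group, and 2 of 3 in bovine. Setd4 had 2 of 8 in mouse, in 5 start groups spread over 17.4 kb, and 1 of 3 in bovine. Setd5 had a fragment of 3 exons with 1.62% of its coding bases in mouse, and an exact match of 25 exons and 5571 bp in bovine. In bovine, SETD9 had 1 exact match of 6 exons, SETD7 a model of 8 exons and 2698 bp, and SETD6 2 contained pieces of 218 and 545 bp.

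More than 1 start group was seen in 13 of 30 mouse members, against 26.5% of all named genes, and in 21 of 32 bovine members, against 33.9%. The mean was 1.83 start groups against 1.36 in mouse and 2.22 against 1.48 in bovine. Many of the inner starts belonged to incomplete models inside long genes, as in Setd2 and KDM5A with 5 start groups each, and which of them reflect promoters was not tested.

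The annotated promoters themselves were rich in CpG. RefSeq windows were matched for 26 mouse genes of the set (36 windows), of which 22 genes (32 windows) had a sense model. These 32 windows had a median of 25 CpG dinucleotides per 300 bases, against 18 in the 13296 windows of all genes with a model. Of these 32, 21 held the first base of a model (65.6%), close to the 62.5% over all such windows. The sequence TATAAA, searched on both strands, occurred in 1 of the 32, that of Kdm5d (3.13%), against 7.97%.

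Other genes of lysine methylation, such as Ehmt1, Ezh2 and subunits of the KMT2 and Polycomb complexes, served for comparison. Of 56 symbols listed, 49 mouse genes (50 symbols) and 48 bovine genes had a sense model. Exact matches were found for 35 of 49 and 27 of 48, against 72.5% and 65.5% of all named genes. A model with an unannotated first exon was found for 11 of the 49 mouse genes, against 20.5%. Their models numbered 3.47 and 3.56 per gene on average, with a median of 3 in both.

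Models outside the sense classes, antisense to a gene, inside its introns or just beyond it, stood at 10 of 30 mouse members, against 14% of all named genes, and at 8 of 32 bovine members, against 9.64%.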

How the data were processed

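Per the labels' protocols, RNA of about 200 embryos per library was reverse transcribed with a nanopore cDNA-PCR kit, amplified with 14 cycles and read on its own flow cell, and both libraries belong to batch 1. The authors deposited StringTie transcript models, per the file headers, with exon positions, gene names, class codes and start groups, and no abundance. The builds mm10 and bosTau9 are from the submitters' processing notes; which aligner, versions and filters were used is not given in the sources used here. PCR copies, read truncation and merging of models can change how many models a gene has and where they start.

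Sense models had class code =, c, k, m, n, j or o. Mouse models were compared with GENCODE M21, where 68.4% of exact multi-exon matches had an identical intron chain, as did 17 of the 35 exact matches of members (48.6%), so coding coverage and unannotated first exons of members rest on an annotation that differs from the reference of the class codes. Coding coverage counts coding bases under exons, and a whole coding region needs identical exons between the coding ends. First exons were judged in models of at least 2 exons that are not exact matches. Shares carry exact Clopper-Pearson 95% intervals (scipy 1.17.1, Python 3.11.15). Overlap and merging of exons were tested on simulated plus-strand models. The whole-coding and exon-skipping rules were tested there only as restated copies, and minus-strand models were not simulated. Every member is named with its number of models, and structures are given for those with most models, an unannotated first exon, no exact match or presence in 1 species. Models outside the sense classes are given as counts, with a few loci described after their values were seen. Members and lists were chosen with earlier results of these data known. Alternatives changed the class codes, single-exon models, overlap, annotation, coding ends and grouping of starts.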

Additional observations from a re-analysis of the deposited data

Results flagged for a closer look

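Models outside the sense classes, which lie antisense to a gene, inside its introns or just beyond it, were counted per gene above but entered no comparison of sense models. At member loci there were 19 in mouse and 15 in bovine. In mouse 10 lay inside introns and 11 had a single exon, and in bovine 10 of the 15 overlapped the gene on the opposite strand.

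KDM4C had the most in both libraries, 4 in mouse and 6 in bovine. All 6 bovine models were spliced and antisense. Of these, 2 began at 38142017 on chromosome 8, 129 bp from a sense start, 2 began at 38140807, 1081 bp from it, and 2 began 80766 bp beyond the 3′ end of the gene. In mouse a spliced antisense model of 2 exons began 129 bp from the sense start at 74251879, 2 further ones were single exons inside an intron, and the fourth was a sense-strand model that shares the unannotated first exon.

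Mouse Kdm6a had 2 spliced antisense models, of 7 exons and 977 bp and of 6 exons and 6917 bp, that began 28754 and 19527 bp beyond the gene's 3′ end. The Kdm6a models, of class code x, had no intron identical to an annotated intron of the gene. Kmt2c and Kmt2d each had an opposite-strand model of another class code, s, of 6 and 11 exons. In these, 3 of 5 and 4 of 10 introns were identical to annotated introns of the gene on its own strand. Whether the Kmt2c and Kmt2d models carry the right strand was not tested.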

How the results depend on the processing

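With exact matches alone, 19 of the 30 mouse members, 13 of the 32 bovine members and 10 of the 26 shared symbols remained. Of 24 alternatives, the other 21 moved a share by less than its interval or a count or mean by less than 1.5 times. Among them, exact matches without contained models made up 43.8% in mouse and 26.8% in bovine, and mouse models with an unannotated first exon numbered 9 to 12. The 12 came from exact matches alone as the annotation, a rule that also counts first exons held by GENCODE M21. Requiring the longest coding region, an alternative chosen after seeing the data, left 12 members with a whole model in place of 15. No paired analysis was possible because each species has 1 library. With no read counts, a rare long transcript cannot be told apart from one that was not read to its end.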
